A study of Homo sapiens with 6 samples.

Results

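The nuclear-encoded genes of the mitochondrial respiratory chain were compared between TAE684-resistant SY5Y-TR1 cells and parental SH-SY5Y cells. Members were chosen by gene symbol alone, as the genes named NDUFA, NDUFB, NDUFC, NDUFS or NDUFV with a number, SDHA to SDHD, UQCR, CYC1, COX4 to COX8 and ATP5, without pseudogenes. The rule found 80 of the 19775 genes measured, of which 77 are protein-coding and 3 are non-coding RNAs that lie beside subunit genes. Of these, 75 encode subunits, with 32 in complex I, 3 in complex II, 7 in complex III, 16 in complex IV and 17 in complex V. The other 5 are the ATP synthase inhibitor ATP5IF1, the supercomplex factor COX7A2L and the non-coding NDUFB2-AS1, NDUFV2-AS1 and NDUFV1-DT.

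The respiratory chain sits in the inner mitochondrial membrane. Complexes I and II pass electrons from NADH and succinate to ubiquinone, complex III hands them on to cytochrome c and complex IV to oxygen, and complex V, the ATP synthase, uses the resulting proton gradient to make ATP. Most subunits are nuclear genes whose proteins are imported, whereas a small catalytic core is encoded by mitochondrial DNA, so that the chain draws on both genomes.

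SH-SY5Y is a human neuroblastoma line bearing the ALK F1174L mutation, and SY5Y-TR1, derived from it, carries the same mutation. SH-SY5Y cells were grown in medium without inhibitor and SY5Y-TR1 cells in the same medium with 1 µM of the ALK inhibitor TAE684. According to the methods, SY5Y-TR1 is 1 subclone expanded after long exposure to rising doses, so the selection, the clone and the presence of the drug cannot be told apart. Total RNA of each line was measured on 3 U133 Plus 2.0 arrays. The labels call them biological replicates, while the submitters' summary speaks of replicates of each line, so p-values measure the spread between these arrays, which may be technical.

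The deposited signals are on the log2 scale, made by RMA (robust multi-array average), and each gene was read from its probe set with the highest mean over the 6 arrays. Array medians ran from 5.57 to 5.59, and no pair of arrays was identical. The background level, the 90th percentile of 43 genes of unrelated tissues, was 6.33. The 3′ minus 5′ log2 signal of beta-actin was 0.52 to 0.60 in SH-SY5Y and 0.33 to 0.47 in SY5Y-TR1, and that of GAPDH 0.13 to 0.21 and 0.13 to 0.18. Of 14 noradrenergic neuroblast markers, 9 were at least 2-fold lower in SY5Y-TR1, with a summed linear level of 25100 to 26000 in SH-SY5Y and 5890 to 6070 in SY5Y-TR1, and TH and SLC18A2 lay under background in both lines. Of 12 mesenchymal neuroblastoma markers, 10 were at least 2-fold higher, with a summed level of 41600 to 42000 against 90900 to 97600. The part of these differences in the results below was not tested. All 5 Schwann cell, 6 blood cell and 7 endothelial markers lay under background in both lines. In bulk RNA, fewer cells of a type and less RNA per cell cannot be told apart.

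No respiratory chain gene reached a 2-fold difference between the lines. At a fold of at least 2 and a limma adjusted p under 0.05, 0 of 80 members were called, beside 11.4% of all 19775 genes (5.36% higher and 5.99% lower) and 11.5% of the 3236 genes with a mean signal of at least 10. The 95% interval of the difference lay within 2-fold in either direction for all 80 members, against 85.7% of all genes and 85.6% of genes with a mean signal of at least 10. It lay within 1.5-fold for 77 members, against 69.9% and 64.6%. The log2 fold changes had an SD of 0.192 over members and of 0.855 over all genes, and with values raised to the background level they ran from -0.50 for NDUFS7 to 0.49 for NDUFB2-AS1.

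Differences well under 2-fold passed the test in 37 members. Of the 80 members, 73 lay above background, 68 had a mean signal of at least 10, and the median SD between arrays of a line was 0.0336 in SH-SY5Y and 0.0346 in SY5Y-TR1. At an adjusted p under 0.05 with no limit on the fold, 20 members were higher in SY5Y-TR1, 17 were lower and 43 did not pass, whereas 28.5% of all genes were higher and 24.3% lower. The share passing in either direction was 46.2% of members and 52.8% of all genes, and among genes with a mean signal of at least 10 it was 47.1% of members and 77.9% of genes. Arrays of the lines did not overlap for 29 members with higher and 27 with lower signal, beside 32.6% and 27.2% of all genes (59.8% in either direction). The count of higher members was 10 without SH-SY5Y replicate 3, 13 without SY5Y-TR1 replicate 1 and 11 without SY5Y-TR1 replicate 3, and the count of lower members was 11 without SH-SY5Y replicate 1.

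**Figure D1:**
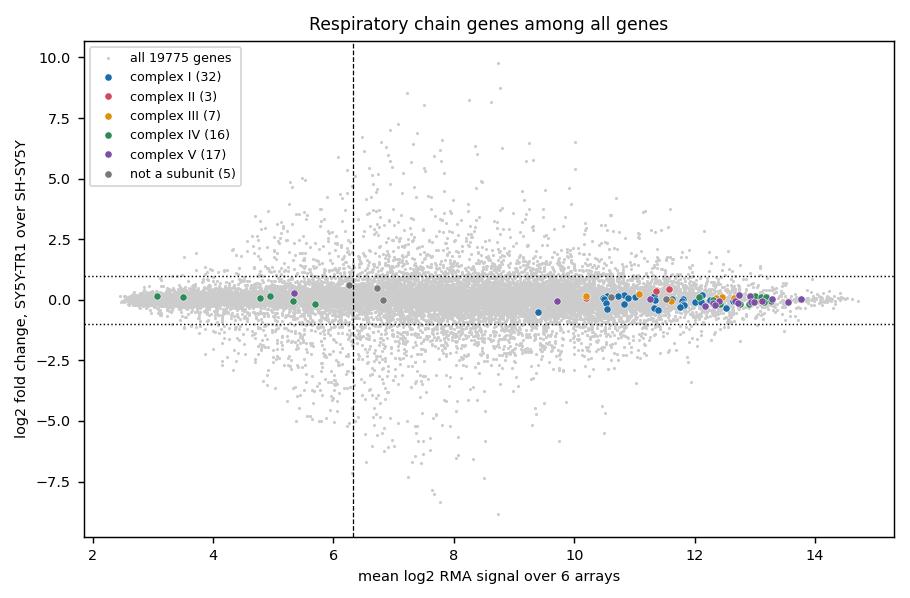
Log2 fold change of SY5Y-TR1 over SH-SY5Y against the mean log2 RMA signal over 6 arrays, for all 19775 genes in grey and the 80 respiratory chain genes coloured by complex. Dotted lines mark 2-fold, the dashed line the background level of 6.33, and every coloured point lies between the dotted lines, mostly at a mean signal of 10 or more.

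The promoters of the members were searched for 4 motifs of factors known to control respiratory genes, on both strands, in RefSeq windows of 250 bases before to 50 after the gene start (GRCh38.p14). A window was given for 68 of the 80 members. The NRF1 core CGCATGCG, a palindrome, was held by 11 of these 68 (16.2%) and by 2.46% of all 27305 genes with a window, or 3.28% of the protein-coding ones. The ETS motif CCGGAAGT, which GABPA binds, was also held by 11 (16.2%, against 4.95% of all and 6.97% of protein-coding genes), the YY1 motif AAGATGGCG by 8 (11.8%, against 2.14% and 3.21%), and the estrogen-related receptor motif TCAAGGTCA by 1, SDHD (1.47%, against 0.432% and 0.335%). These motifs do not overlap each other in the windows below, and a match describes letters, not a bound site. Members with the NRF1 core went both ways, with 3 higher (ATP5ME, COX6A1 and SDHD), 4 lower (ATP5MC2, NDUFA5, NDUFS6 and NDUFS7) and 4 not passing. Members with the ETS motif were 2 higher, 1 lower and 8 not passing, and those with the YY1 motif 3 higher, 2 lower and 3 not passing. Shown are stretches around the matches, in capitals, for 3 NRF1 core holders described below. SDHD, at chr11:112086724-112086902 on the plus strand, holds the NRF1 core, the ETS motif and the receptor motif, the last 2 on the reverse strand. NDUFS7, at chr19:1383793-1383936 on the plus strand, holds the NRF1 core and the YY1 motif. ATP5MC2, at chr12:53676077-53676164 on the minus strand, holds the NRF1 core.
SDHD: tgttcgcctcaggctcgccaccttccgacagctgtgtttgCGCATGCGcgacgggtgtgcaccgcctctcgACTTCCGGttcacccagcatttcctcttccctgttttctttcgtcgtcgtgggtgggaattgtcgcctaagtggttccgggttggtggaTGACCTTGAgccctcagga
NDUFS7: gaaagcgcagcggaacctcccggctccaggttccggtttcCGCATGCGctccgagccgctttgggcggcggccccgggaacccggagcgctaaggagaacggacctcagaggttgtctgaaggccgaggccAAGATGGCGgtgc
ATP5MC2: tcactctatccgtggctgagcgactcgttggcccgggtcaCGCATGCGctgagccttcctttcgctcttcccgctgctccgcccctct

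On the brightest probe sets, the 3 largest decreases among subunit genes were in complex I. Of its 32 genes, 9 fell, 6 rose and 17 missed the threshold, so that 46.9% passed beside 52.8% of all genes (28.5% higher and 24.3% lower), with a median log2 fold change of -0.02, which turned to 0.0153 without probe sets of shared-sequence names. NDUFS7, a quinone-side core subunit that carries an iron-sulphur cluster, read 9.71, 9.55 and 9.66 on the SH-SY5Y arrays and 9.20, 9.02 and 9.22 on the SY5Y-TR1 arrays. The lines did not overlap, and the gene fell by 0.50 on the log2 scale (SE 0.0719, adjusted p = 0.000876, limma), a 1.41-fold difference. Its other probe set lay under background in both lines. NDUFV1, the subunit that binds NADH and the flavin, read 10.75, 10.73 and 10.75 against 10.41, 10.29 and 10.35, a fall of 0.39 (SE 0.046, adjusted p = 0.00028). A dimmer NDUFV1 probe set read a mean of 6.77 in SH-SY5Y and 6.91 in SY5Y-TR1 and did not pass (adjusted p = 0.255 over all probe sets), and with the mean of both the call was lost (-0.13, adjusted p = 0.128). NDUFB11, a membrane-arm accessory subunit, read 11.61, 11.66 and 11.56 against 11.17, 11.17 and 11.22, and fell by 0.42 (SE 0.0448, adjusted p = 0.000171).

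The decreases in complex I were spread over its parts and stood beside increases. NDUFS3, a core subunit next to NDUFS7, fell by 0.16 (adjusted p = 0.017, limma, and 0.0585 and 0.0515 without SH-SY5Y replicates 1 and 2), whereas the core subunits NDUFV2 at 0.02 and NDUFS1 at 0.07, both iron-sulphur proteins of the electron input, did not pass. Of 9 genes for the NADH-input side, 2 were higher and 2 lower, and of 12 for membrane-arm NDUFB subunits and NDUFC1, 2 were higher and 3 lower. Several further members are named here after their values were seen. NDUFA6 and NDUFB9 each fell by 0.32, NDUFB6 fell by 0.28, NDUFS6 fell by 0.20 and NDUFA5 fell by 0.17. The largest increases in complex I were NDUFB10 at 0.22, NDUFA1 at 0.20 and NDUFS4 at 0.19, followed by NDUFB7 at 0.16, NDUFA7 at 0.15 and NDUFA3 at 0.14. NDUFB10 and NDUFB11 both belong to the membrane arm and moved in opposite directions.

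**Figure D2:**
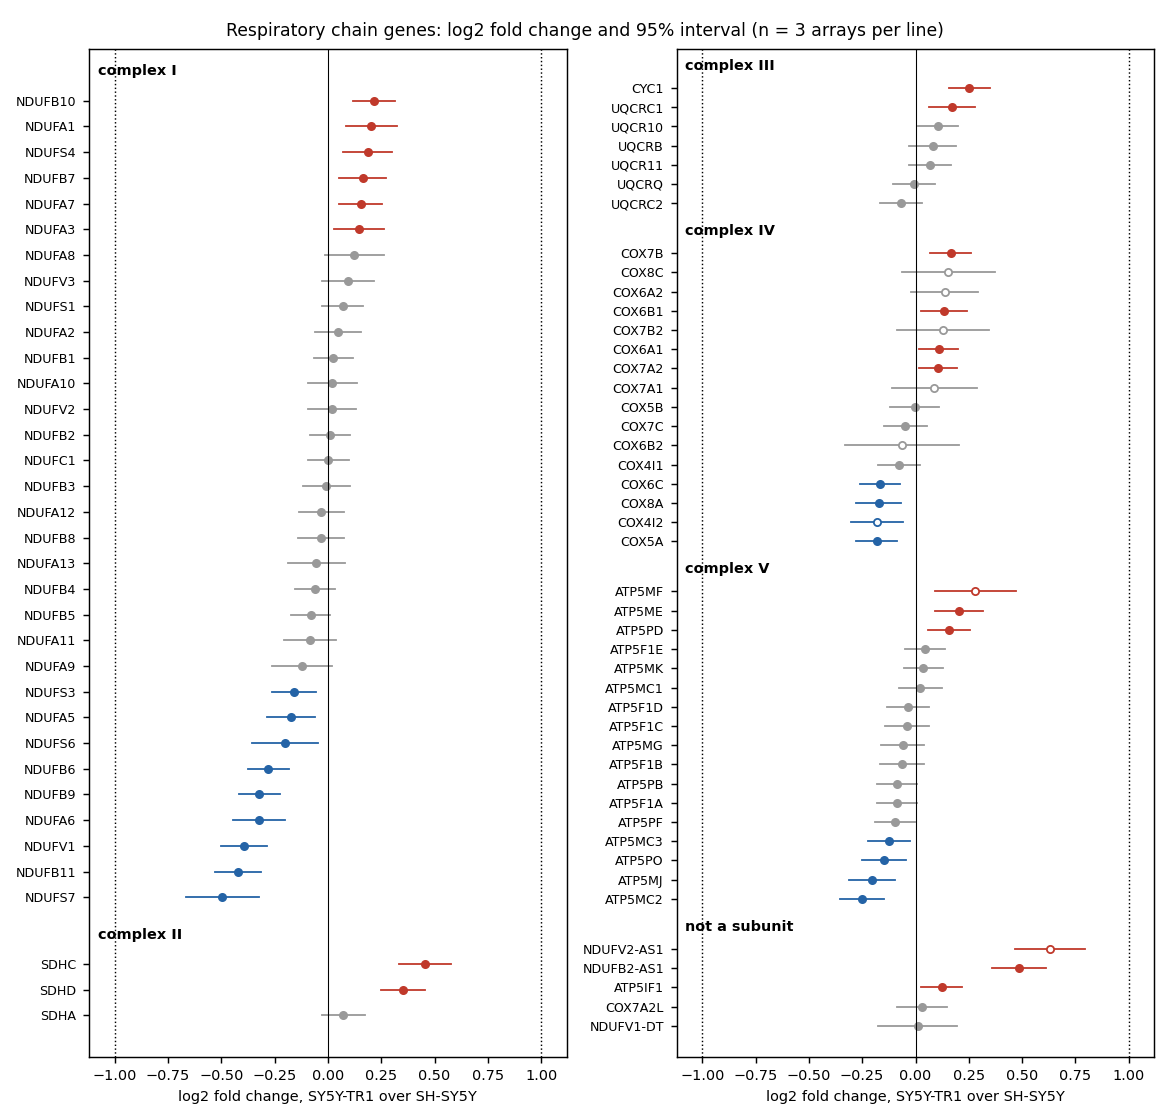
Log2 fold change of SY5Y-TR1 over SH-SY5Y (points) with its 95% interval (lines) for each of the 80 genes, by complex, n = 3 arrays per line. Red and blue mark genes higher and lower at an adjusted p under 0.05, grey those not passing, open points genes under background on every array of at least 1 line and dotted lines 2-fold, which no interval reaches.

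Complex II, the succinate dehydrogenase that also belongs to the TCA cycle, had the highest median log2 fold change of the 5 complexes, 0.35 over the 3 genes analysed. Both membrane anchor genes rose and the flavoprotein gene did not pass. The share passing was 66.7%, beside 52.8% of all genes and 77.9% of genes with a mean signal of at least 10. SDHC read 11.32, 11.37 and 11.35 in SH-SY5Y and 11.87, 11.72 and 11.80 in SY5Y-TR1, a 1.37-fold increase (log2 0.45, SE 0.051, adjusted p = 0.000224, limma). Of its 7 probe sets, 5 were higher at an adjusted p under 0.05, by 0.39 to 0.52, 1 with a signal near 7.64 did not differ beyond its error (-0.01, SE 0.0533), and 1 lay under background. SDHD, whose promoter is printed above, read 11.15, 11.19 and 11.21 against 11.57, 11.55 and 11.50, a 1.28-fold increase (log2 0.35, SE 0.0433, adjusted p = 0.000353). SDHA, which holds the flavin and the succinate site, read 10.20, 10.14 and 10.12 against 10.23, 10.21 and 10.23 (log2 0.07, SE 0.0427, adjusted p = 0.202). The SDHC and SDHD arrays did not overlap between the lines, whereas the highest SDHA array of SH-SY5Y all but reached the lowest of SY5Y-TR1.

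In complex III, on the brightest probe sets, 2 of 7 genes rose, none fell and 5 did not pass. The share passing was 28.6%, beside 52.8% of all genes (28.5% higher and 24.3% lower). A dimmer probe set of the small subunit UQCR11, at means of 7.55 and 7.3, passed as lower at -0.25 (adjusted p = 0.0127 over all probe sets, limma). CYC1, the cytochrome c1 that passes electrons to cytochrome c, read 10.94, 10.95 and 10.94 against 11.23, 11.16 and 11.20, a 1.19-fold increase (log2 0.25, SE 0.0411, adjusted p = 0.00158, limma). UQCRC1, a core protein of the matrix side, rose by 0.17 (SE 0.0456, adjusted p = 0.0161, and 0.0586 without SH-SY5Y replicate 3), while UQCRC2, its partner, was at -0.07 (adjusted p = 0.221). The small subunit UQCR10 was at 0.11 with non-overlapping arrays (12.42, 12.41 and 12.39 against 12.52, 12.48 and 12.54) but missed the threshold (adjusted p = 0.06), which it passed with dim genes left out (adjusted p = 0.0183).

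**Figure D3:**
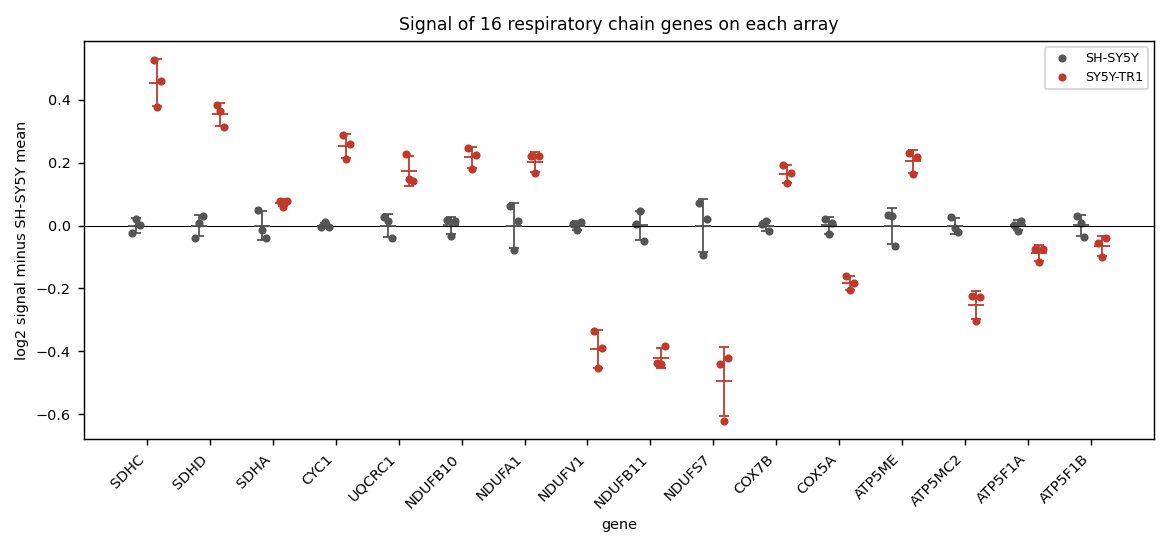
Log2 signal minus the SH-SY5Y mean on each array for 16 respiratory chain genes, SH-SY5Y in grey and SY5Y-TR1 in red, with points for arrays and a bar for the mean and SD of 3 arrays. SDHC, SDHD and CYC1 lie above and NDUFV1, NDUFB11, NDUFS7 and ATP5MC2 below their SH-SY5Y arrays, while the ATP synthase subunits ATP5F1A and ATP5F1B differ by less than 0.1.

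Complex IV genes split into 10 bright ubiquitous subunits and 6 isoforms that are known from particular tissues. Of the ubiquitous subunits, 4 were higher, 3 lower and 3 did not pass, within -0.18 to 0.16 (log2) on their brightest probe sets. The share passing was 70%, beside 52.8% of all genes and 77.9% of genes with a mean signal of at least 10. COX5A, which sits on the matrix side, read 12.54, 12.49 and 12.52 against 12.35, 12.31 and 12.33 (log2 -0.18, SE 0.04, adjusted p = 0.00681, limma). A dimmer COX5A probe set, at means of 7.78 and 7.21, fell by 0.58 (adjusted p = 0.00381 over all probe sets, limma). COX8A and COX6C fell by 0.17 each, COX8A with an adjusted p of 0.0529 without SH-SY5Y replicate 1. COX7B rose by 0.16 (adjusted p = 0.0111) on its bright probe set, at 12.93, 12.94 and 12.91 against 13.12, 13.06 and 13.09, but its dimmer probe set, at means of 7.16 and 6.65, fell by 0.52. COX6B1 rose by 0.13, COX6A1 by 0.11 and COX7A2 by 0.11, with adjusted p of 0.0413, 0.0492 and 0.0467. COX6A1 and COX7A2 lost their calls without any 1 of the 6 arrays (adjusted p 0.0563 to 0.143), and COX6B1 without any but SH-SY5Y replicate 1 (0.0644 to 0.129). COX4I1, the ubiquitous form of the subunit that binds ATP, was at -0.08 (adjusted p = 0.157), while a dimmer probe set of it, at means of 7.18 and 6.79, passed as lower at -0.39 (adjusted p = 0.0014 over all probe sets).

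The 6 isoform genes, COX4I2 of lung, COX6A2 and COX7A1 of heart and skeletal muscle, and COX6B2, COX7B2 and COX8C, which are known from testis, all lay under background on every array of both lines. None of them had a measured level in either line, so no fold is given, although the fit passed COX4I2 as lower (5.80, 5.72 and 5.82 against 5.67, 5.59 and 5.55, adjusted p = 0.0217). The supercomplex factor COX7A2L, a relative of COX7A2, was at 0.03 (adjusted p = 0.637). COXFA4, formerly NDUFA4 and outside the symbol rule, is counted with complex IV today and was at -0.04 (adjusted p = 0.431), and COXFA4L2, its hypoxia-responsive relative, lay under background in both lines.

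Of the 17 genes of complex V, 3 rose, 4 fell and 10 did not pass. The share passing was 41.2%, beside 52.8% of all genes (28.5% higher and 24.3% lower). On their brightest probe sets none of the 5 genes of the catalytic F1 part passed, within -0.09 to 0.05, and the catalytic pair ATP5F1A and ATP5F1B read -0.09 (95% interval -0.18 to 0.01) and -0.06 (-0.16 to 0.04). With dim genes left out ATP5F1A passed as lower (adjusted p = 0.0379). A dimmer ATP5F1D probe set, at means of 8.37 and 8.17, passed as lower at -0.20 (adjusted p = 0.0189 over all probe sets), and an ATP5F1C probe set at means of 5.93 and 6.56, at the background level, passed as higher (adjusted p = 0.00464), while the other 3 of that gene did not pass. The c-ring, whose rotation drives the enzyme, is encoded by 3 genes that give the same mature protein. ATP5MC2 read 12.33, 12.30 and 12.28 against 12.08, 12.00 and 12.08 and fell by 0.25 (SE 0.0435, adjusted p = 0.00221, limma), ATP5MC3 fell by 0.13 (adjusted p = 0.0376, and 0.0552 to 0.129 without any 1 array), and ATP5MC1 was at 0.02 (adjusted p = 0.711). Of the small membrane subunits, ATP5ME rose by 0.21 and ATP5MJ fell by 0.20 on their brightest probe sets. Another ATP5MJ probe set, at means of 11.1 and 10.7, fell by 0.46. An ATP5MG probe set at means of 9.77 and 10.2 rose by 0.42, although the brightest of that gene did not pass. A dimmer ATP5MC3 probe set, at means of 7.92 and 7.4, fell by 0.52. In the peripheral stalk ATP5PD rose by 0.16 and ATP5PO fell by 0.15. ATP5MF passed as higher, but it was read from a probe set under background in both lines, since its other probe set carries several symbols, and no fold is given.

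Of the 5 members that are no subunits, 3 passed as higher and none as lower (60% passing, beside 52.8% of all genes). NDUFV2-AS1, an antisense transcript, read 5.99, 5.94 and 5.91 in SH-SY5Y, all under background, and 6.47, 6.55 and 6.71 in SY5Y-TR1, so it was at least 1.18-fold higher (adjusted p = 0.000201, limma). NDUFB2-AS1 read 6.43, 6.53 and 6.49 against 6.96, 6.91 and 7.04, a rise of 0.49 (adjusted p = 0.000191), close to background, while NDUFB2 itself was at 0.01. ATP5IF1, which blocks the ATP synthase when it runs backwards, rose by 0.12 (adjusted p = 0.04). Another ATP5IF1 probe set, at means of 10.3 and 10.6, passed as higher at 0.24. A dimmer ATP5IF1 probe set, at means of 7.25 and 7.06, passed in the other direction at -0.20. Over all 155 probe sets of the members, 26 passed as higher and 30 as lower, beside 40.6% of all probe sets in either direction. Of them 1 reached 2-fold, against 8.37% of all probe sets, an ATP5F1E probe set under background in both lines.

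Other mitochondrial gene lists, written from general knowledge, were read in the same fit. Of 6 subunit genes of mitochondrial DNA with a probe set of their own, only ND6 passed. ND6, the complex I subunit encoded on the opposite strand from the other 5, read 9.96, 10.20 and 9.99 in SH-SY5Y and 9.42, 9.35 and 9.36 in SY5Y-TR1 (log2 -0.67, SE 0.0721, adjusted p = 0.000174, limma). ND2 at 0.16, ND4 at 0.10, COX1 at 0.16, ATP6 at 0.10 and COX3 at -0.02 did not pass (adjusted p from 0.0593 to 0.892), although COX1 did with dim genes left out (0.028) and without SY5Y-TR1 replicate 3 (0.0482). The line means of ND2, ND4, COX1 and ATP6 ran from 13.9 to 14.3, near the highest signal on any array, 14.74. Whether differences are compressed at such signals was not tested. Among 52 assembly factors, which build the complexes without staying in them, 18 were higher, 23 lower and 11 did not pass. The share passing was 78.8%, beside 52.8% of all genes (28.5% higher and 24.3% lower). On the brightest probe sets none reached 2-fold. The largest decreases on these were UQCC3, a complex III factor, at -0.81 and ECSIT, a complex I factor, at -0.78. Dimmer probe sets of TMEM70 (means of 8.06 and 6.34) and NDUFAF4 (8.6 and 7.16) fell by more, at -1.72 and -1.44. By contrast, a dimmer COA1 probe set (6.49 and 7.36) rose by 0.88, while its brightest fell by 0.39.

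Several genes around the chain differed between the lines by more than any nuclear subunit gene did on its brightest probe set. Of 24 electron carrier and transport genes, 5 were higher, among them the member ATP5IF1, and 10 lower (62.5% passing, beside 52.8% of all genes). PDSS1 and COQ2 of ubiquinone synthesis were at -0.92 and -0.65, and cytochrome c, CYCS, at -0.30 on its brightest probe set. Dimmer CYCS probe sets, at means of 7.2 and 6.44 and of 7.4 and 6.36, fell by 0.76 and 1.04. Of 24 genes of the TCA cycle and pyruvate dehydrogenase, 9 were higher and 8 lower (70.8% passing). IDH2, the mitochondrial NADP-linked isocitrate dehydrogenase, read 10.19, 10.16 and 10.09 against 8.54, 8.46 and 8.62, a 3.05-fold decrease (log2 -1.61, SE 0.0549, adjusted p = 5.28e-07, limma), and its dimmer probe set, under background in SY5Y-TR1, also passed as lower. By contrast, IDH3A and IDH3G, subunits of the NAD-linked enzyme and named after their values were seen, rose by 0.61 and 0.64. PDK4, a kinase that switches off pyruvate dehydrogenase, was called at 2-fold lower but lay under background in both lines.

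The regulators of mitochondrial gene expression included decreases of over 2-fold. Of 26 genes, 8 were higher and 12 lower, so that 76.9% passed beside 52.8% of all genes (28.5% higher and 24.3% lower). At least 2-fold decreases were called in 3 of them, beside 5.99% of all genes. ESRRG, an orphan nuclear receptor that controls oxidative metabolism genes, read 11.54, 11.61 and 11.65 against 4.58, 5.01 and 5.51, under background in SY5Y-TR1, and was at least 38.5-fold lower (adjusted p = 3.98e-07, limma). Its second probe set, at a mean of 10.4 in SH-SY5Y, also lay under background in SY5Y-TR1 and passed as lower. MYC fell by 2.13, or 4.37-fold (adjusted p = 5.91e-08), from 10.00, 10.06 and 10.01 to 7.92, 7.86 and 7.92. NRF1, whose core motif is printed above, read 8.14, 7.99 and 8.09 against 6.76, 6.88 and 6.79, a 2.40-fold decrease (log2 -1.26, SE 0.0583, adjusted p = 2.24e-06). Its next brightest probe set fell by 0.72.

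Further regulators are named after their values were seen. TFAM, which packages and transcribes mitochondrial DNA, read 10.74, 10.81 and 10.81 against 10.00, 9.84 and 9.92, a fall of 0.86 (adjusted p = 1.15e-05, limma), and all 4 of its probe sets passed as lower. GABPB1, a partner of GABPA, fell by 0.96, GABPA by 0.32, the mitochondrial helicase TWNK by 0.73 and YY1 by 0.17 on its brightest probe set. Other YY1 probe sets, at means of 10.5 and 9.89 and of 10 and 9.49, fell by 0.58 and 0.56. A YY1 probe set at means of 11.3 and 11.1 fell by 0.16, and another at 7.3 and 7.22 did not pass. POLRMT, the mitochondrial RNA polymerase, rose by 0.47 and PPARA by 0.76. The coactivators PPARGC1A and PPARGC1B lay under background in both lines.

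Of 24 import genes, 1 was higher and 13 were lower, with TIMM13 at -0.94 (0.0451 on another probe set without a shared-sequence name) and TOMM20 at -0.78, beside the 28.5% and 24.3% of all genes that passed in each direction. Of 22 genes of fusion, fission and cristae, 5 were higher and 10 lower, with CHCHD3, a cristae scaffold, at -0.96 and APOOL at 0.75. Of 76 mitochondrial ribosomal protein genes, 14 were higher and 34 lower, none by 2-fold, with a median of -0.10 and with MRPS2 at -0.62 and MRPS6 at 0.60. The median absolute log2 fold change was 0.115 over the respiratory chain genes, 0.133 over the 6 genes of mitochondrial DNA and 0.167 to 0.355 over the other 7 lists, beside 0.207 over all genes and 0.325 over genes with a mean signal of at least 10.

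**Figure D4:**
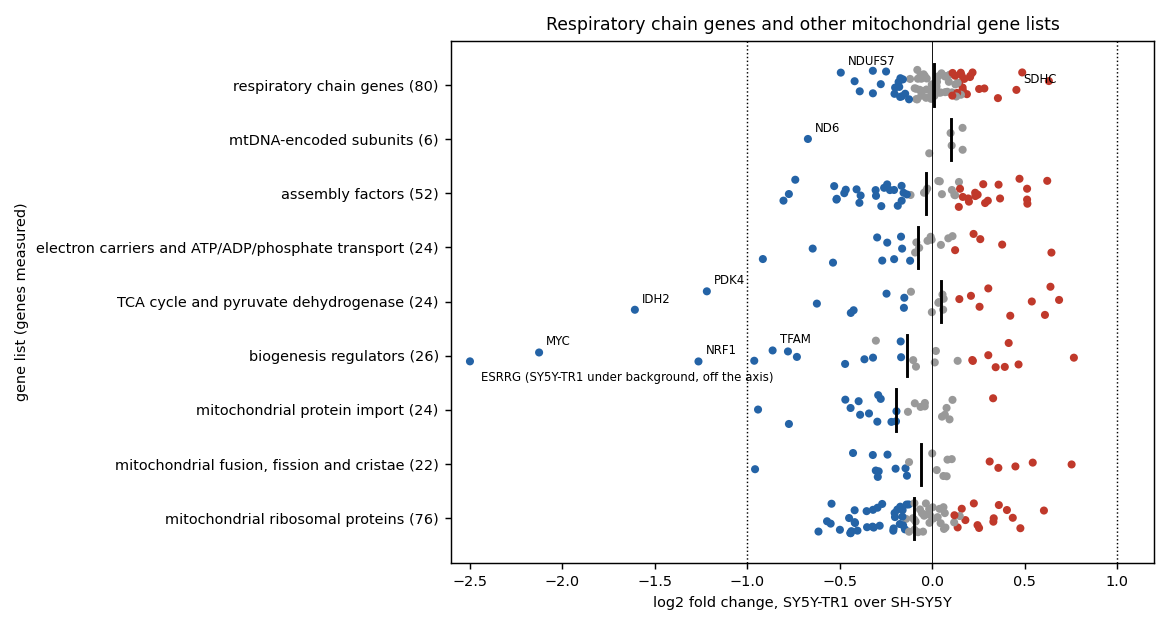
Log2 fold change of SY5Y-TR1 over SH-SY5Y for the 80 respiratory chain genes and 8 other mitochondrial gene lists, with 1 point per gene, red for higher and blue for lower at an adjusted p under 0.05, grey for not passing, and a black bar for the median. Vertical scatter has no meaning, ESRRG, which lay under background in SY5Y-TR1, is drawn at the left edge without its size, and no respiratory chain gene passes the dotted 2-fold lines.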

How the data were processed

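The log2 signals were deposited by the authors, who made them by RMA in Affymetrix Expression Console (versions not given in the sources used here). RMA subtracts background, brings the arrays to 1 distribution by quantile normalization and combines the probes of a set, which can hide a shift shared by most genes. Precision rests on 3 arrays per line. After 62 control probe sets were left out, 54613 remained, of which 41091 had 1 symbol in the platform annotation, 1801 several and 11721 none; no gene was named from several, so 8 symbols of the rule were not analysed here. Lines were compared with limma 3.58.1 (lmFit, eBayes) in R 4.3.3, Benjamini-Hochberg adjusted over 19775 genes, after tests on simulated data. Where every array of the dimmer line was at or under background, the fold is at least the brighter mean over that level. Members and lists were chosen with earlier results of these data known. Named members are those called at 2-fold, the 3 largest changes above background of each complex, catalytic core genes and isoform genes, and 2 genes per list in each direction by size. Alternatives were other probe set rules, scalings, dim-gene filters, a replicate block, a robust fit, the methods' t-test, thresholds and each array left out.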

Additional observations from a re-analysis of the deposited data

How the results depend on the processing

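No member reached 2-fold in either direction under any alternative run by gene. Over every probe set, 30 were lower and 1 was at least 2-fold lower, and with a fold of at least 1.5, 1 member was higher and 0 were lower. Leaving out each array gave 10 to 17 higher and 11 to 16 lower members, and with fewer arrays the fits have fewer degrees of freedom. Medians near 0 changed with the setting. Over all members the median was -0.0194 after centring on 25 housekeeping genes, which lowered every log2 fold change by 0.0286. It was -0.00113 to 0.0226 without 1 array. Without probe sets of shared-sequence names it was 0.0153 in complex I, 0.423 in complex II (2 genes), -0.00731 in complex III and 0.0887 in complex IV. With the mean of all probe sets it was -0.00731 in complex III and -0.021 in complex IV, and with housekeeping centring 0.052 and 0.014. With dim genes left out, or values raised to background, complex IV was at -0.0254. Without 1 array, complex III ran from 0.0703 to 0.113 and complex IV from -0.00081 to 0.0626. Signs turned for NDUFS7 (0.0696) and TIMM13 (0.0451) without shared-sequence probe sets, for ATP5F1C with the mean of probe sets (0.12) and without shared-sequence ones (0.63), and for COX7B with the mean (-0.18); without shared-sequence names each value rests on another, dimmer probe set, and the means include the brightest one. Replicate numbers did not pair the arrays (correlations of deviations 0.000198, 0.0205 and 0.0299), and with the replicate block 15 of the 20 higher and 15 of the 17 lower members still passed, with no 2-fold call changed. Among named members the block ended the calls of COX6A1, COX6B1, COX7A2 and ATP5MC3. The cause of changes between settings was otherwise not tested. Dim genes have bounds or no fold.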
